A study of Mus musculus with 2 samples.

Results

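Small proline-rich proteins (Sprr) of squamous epithelium were examined in nasal mucosa of C57BL/6 mice at day 3 after papain and at day 3 after phosphate-buffered saline (PBS), 1 Affymetrix Mouse Gene 2.0 ST array for each. The 8 genes, of 23981 genes that any probe set named, were Sprr1a, Sprr1b, Sprr2a1, Sprr2a2, Sprr2a3, Sprr2b, Sprr2d and Sprr3. They were taken by name from the platform annotation: a probe set was kept where it named at least 1 of them and no gene outside the family. This gave 9 probe sets, of which 1 repeated the value pair of another and was left out, so 8 distinct ones remained. Of those 8, 5 named 1 gene and 3 named several Sprr genes. The mice were 4-6 weeks old in both groups, no engineered allele is named in the labels, and papain, a plant cysteine protease, was the agent that differed. The design text says that 4 samples were pooled for a specimen, so the spread between animals was not measured. The family was selected on its papain over PBS ratios in these same 2 arrays, so its ratios are a description, with no test.

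Sprr proteins are precursors of the cornified envelope, the protein shell under the membrane of cells in stratified squamous epithelium. Transglutaminases cross-link their glutamine- and lysine-rich ends to each other and to loricrin and involucrin. The genes lie in the epidermal differentiation complex on mouse chromosome 3. Sprr2 genes are also known to be induced in mouse airway epithelium by interleukin-13 (IL-13) through the transcription factor STAT6, and Sprr2a in the mouse gut by bacteria. Sprr3 is typical of oral and oesophageal lining, and Sprr1a is also known from injured peripheral neurons.

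All 14 Sprr genes with an entry in the RefSeq table of start windows could be matched by symbol, the 8 members among them. The 250 bases before the annotated start (GRCm38.p6) are printed for 4 members, because the members divided by gene: Sprr2a1 and Sprr2b were named by probe sets that were higher in the papain array, and Sprr2d and Sprr1a were not. Sprr2d lay under background level, defined below, in both arrays, so whether its transcript differed was not measured. Capitals mark motifs searched on both strands: the AP-1 site TGANTCA, the octamer ATTTGCAT, the spaced palindrome TTCNNNNGAA bound by STAT6, its shorter form TTCNNNGAA bound by other STAT factors, and the TATA box TATAAA. The letters AGGAAG of ETS factors and GGGTGG of Klf factors were also searched and are not in capitals. No 2 of the matches in capitals overlapped in the printed windows. Sprr2a1 is from chr3:92215585-92215834, Sprr2b from chr3:92316455-92316704 and Sprr2d from chr3:92338890-92339139, all on the + strand, and Sprr1a is from chr3:92485882-92486131 on the - strand.
Sprr2a1: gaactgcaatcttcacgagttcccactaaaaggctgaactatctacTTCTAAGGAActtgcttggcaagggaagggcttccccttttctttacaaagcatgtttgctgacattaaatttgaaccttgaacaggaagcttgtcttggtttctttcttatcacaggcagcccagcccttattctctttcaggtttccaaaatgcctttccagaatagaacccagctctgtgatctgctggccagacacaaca
Sprr2b: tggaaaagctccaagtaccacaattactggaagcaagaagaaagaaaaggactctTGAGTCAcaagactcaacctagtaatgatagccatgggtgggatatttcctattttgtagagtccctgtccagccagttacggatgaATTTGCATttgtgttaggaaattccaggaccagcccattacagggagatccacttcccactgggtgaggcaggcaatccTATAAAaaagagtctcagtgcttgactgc
Sprr2d: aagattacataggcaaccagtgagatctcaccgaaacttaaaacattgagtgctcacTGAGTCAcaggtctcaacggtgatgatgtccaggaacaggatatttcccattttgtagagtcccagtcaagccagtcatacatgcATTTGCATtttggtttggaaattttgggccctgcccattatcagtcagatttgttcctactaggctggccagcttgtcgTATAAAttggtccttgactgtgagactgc
Sprr1a: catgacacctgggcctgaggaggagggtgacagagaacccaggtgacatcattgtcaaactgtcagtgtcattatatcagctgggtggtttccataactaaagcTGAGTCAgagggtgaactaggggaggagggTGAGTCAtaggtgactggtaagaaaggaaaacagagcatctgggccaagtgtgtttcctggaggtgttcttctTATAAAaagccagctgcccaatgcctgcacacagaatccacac

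The windows of Sprr2b and Sprr2d each held an AP-1 match, an octamer and TATAAA in that order, at nearly the same distances. The AP-1 match began 195 bases before the start in Sprr2b and 193 before it in Sprr2d, the octamer 108 before it in both, and TATAAA 29 before it in both. Each of the 7 Sprr2 genes outside Sprr2a that had a window held an AP-1 match and an octamer. Over all 32851 windows, 6.75% held TGANTCA, 1.60% ATTTGCAT and 12.4% TATAAA. Sprr1a held 2 AP-1 matches, and Sprr1b held 1, TGAATCA. The STAT6 palindrome was found in the windows of Sprr2a1, Sprr2a2 and Sprr2a3 and of no other Sprr gene, against 5.85% of all windows. For Sprr2b that absence is not informative, because its window may not reach the matching place, as given below. TTCNNNGAA was found in the window of Sprr2a3, against 7.02% of all windows. GGGTGG was found in Sprr2b, 160 bases before the start, and not in Sprr2d, and it occurred in 5 of the 14 Sprr windows against 28.1% of all windows. AGGAAG was found in the 3 Sprr2a windows and in neither Sprr2b nor Sprr2d, and it occurred in 7 of the 14 against 29.5%. The Sprr windows share sequence with each other, as given below, so counts of matches among them are not counts of independent windows. A match describes letters in a window and is no evidence of binding.

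The Sprr2a windows differed in sequence from those of the other Sprr2 genes. Sprr2a1 and Sprr2a2 were identical over all 300 bases, with the 50 after the start included, and Sprr2a3 shared a run of 272 bases with them. Aligned end to end, Sprr2a1 matched the genes outside Sprr2a at 45.3% to 48.9% of columns, while Sprr2b matched the other Sprr2 genes at 63.1% to 65.4%. Sprr1a matched Sprr4 at 45.4% and Sprr2b at 46.7%, so the values of Sprr2a1 show no special likeness. The longest run common to Sprr2a1 and Sprr2b was the 18 bases ACCAGCCCATTACAGGGA, which occurred in 3 of the 32851 windows, those of Sprr2a1, Sprr2a2 and Sprr2b. It began 80 bases before the start of Sprr2b and 5 bases after the annotated start of Sprr2a1. By that run the annotated starts lie at different places, so distances from the start may not be comparable between the Sprr2a windows and Sprr2b. Placed by that run, the STAT6 palindrome of Sprr2a1, 204 bases before its start, would fall before the first base of the Sprr2b window. The search thus cannot tell whether Sprr2b has a counterpart of that palindrome. Whether the offset between starts or unlike sequence accounts for the differences in motifs was not tested.

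The near identity of the 3 Sprr2a genes also bears on the array. No probe set named Sprr2a1, Sprr2a2 or Sprr2a3 alone, so their values stand for the 3 genes together, and how the signal divides among them cannot be told. All values below are deposited log2 signals per probe set, and ratios are papain over PBS. Signals of different probe sets are not compared with each other. Background level is the median over 35 genes that belong to other organs, 5.03 after papain and 5.09 after PBS. Their 95 percentile over both arrays was 6.24, and a fold whose lower signal lies under it is of uncertain size. The 2 arrays correlated with r = 0.967 across all 41345 probe sets, and their median signals were 5.70 for papain and 5.64 for PBS.

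All probe sets of the family past 2-fold named Sprr2a genes or Sprr2b, and all were higher in the papain array. In a whole-tissue specimen, more cells of a type and more RNA per cell cannot be told apart. Sprr2a encodes the envelope precursor that is also known as a secreted antimicrobial protein of the mouse gut. Probe set 17399858, which named Sprr2a1, Sprr2a2 and Sprr2a3, read 9.19 after papain and 5.65 after PBS, a ratio of 11.6-fold. The repeated probe set of the same 3 genes, 17407390, read 7.86 after papain and 5.84 after PBS, a ratio of 4.06-fold. Both were well above background level after papain and within 1 log2 unit of it after PBS, so the 2 folds, which differ for the same genes, are of uncertain size. Probe set 17399854, which named Sprr2b beside the 3 Sprr2a genes, read 10.95 after papain and 7.98 after PBS. Its ratio was 7.83-fold, and it was the one Sprr2 probe set clear of the 95 percentile of genes of other tissues in both arrays.

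Sprr2b, a neighbouring gene of the same subfamily, had a probe set of its own. It read 8.53 after papain and 6.23 after PBS, a ratio of 4.92-fold, of uncertain size because the PBS signal lay just under 6.24. Among 11691 named genes above a floor of 6.29, the median signal of all named genes, it ranked 99th from the highest ratio. A gene could pass that floor through the papain array alone. Of those genes, 1.59% were higher by 2-fold or more and 0.385% were lower by as much, with a median log2 ratio of -0.10. The 3 genes just above it were Fezf2, Vmn2r126 and Vmn2r79, at log2 ratios of 2.52, 2.49 and 2.47, and the 3 just below were Mir194-2, Pcp4 and H2bc9, at 2.27, 2.27 and 2.25, against 2.30 for Sprr2b. The PBS signals of these genes other than Pcp4 were under background level, so nearness to Sprr2b here is that of a single ratio of array signals. Probe sets of related Sprr2 genes share sequence, so part of the Sprr2b signal may be Sprr2a transcript, which was not tested.

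**Figure D1:**
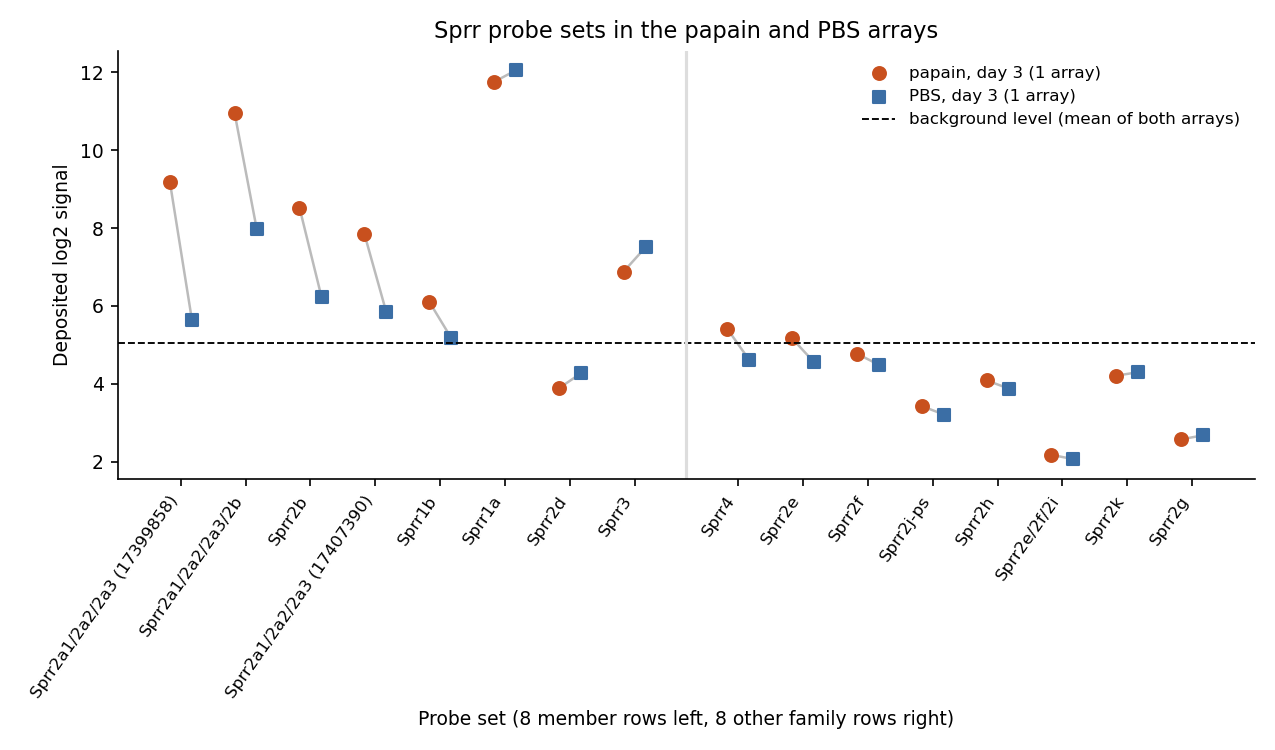
Deposited log2 signal (vertical axis) of each distinct Sprr probe set, with the papain array as a circle and the PBS array as a square, 1 array each and no error bar, and background level as a dashed line. The 4 probe sets of Sprr2a and Sprr2b have papain signals of 7.86 to 10.95 and PBS signals of 5.65 to 7.98, while the other 12 pairs lie within 2-fold.

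The remaining members lay within 2-fold, in both directions. Sprr1b, an envelope precursor, read 6.11 after papain and 5.18 after PBS. Its log2 ratio of 0.93, or 1.91-fold, was the value just short of the 2-fold threshold, as the 4.06-fold of 17407390 was the one just past it. The PBS signal of Sprr1b was 0.09 above background level and the papain signal 1.08 above it.

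Sprr1a and Sprr3 were lower in the papain array. Sprr1a, the other type 1 precursor, read 11.75 after papain and 12.06 after PBS, far above background level in both, with a log2 ratio of -0.30. This gene was thus clearly measured and within 2-fold. Sprr3 read 6.88 after papain and 7.51 after PBS, a log2 ratio of -0.63, and both signals were above the 95 percentile of genes of other tissues. The SD of ratios between probe sets of 1 gene was 0.32. The ratio of Sprr1a was no larger than that SD, and the ratio of Sprr3 exceeded it. That SD measures probe sets within the same 2 arrays and not animals, so neither ratio can be set against the spread between animals. Sprr2d, the next gene after Sprr2b in the cluster, read 3.88 after papain and 4.27 after PBS, under background level in both. Its log2 ratio of -0.38 is a ratio of signals under background level and gives no fold in transcript.

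Of the 8 distinct member probe sets, 4 were higher by 2-fold or more, 0 were lower by as much and 4 lay within 2-fold, with a median log2 ratio of 1.48. Over all 41345 probe sets 2.72% were higher by 2-fold or more and 1.86% lower, with a median of -0.02. Since this contrast chose the family, the comparison of those shares shows nothing further. Of the 8, 6 reached the floor in at least 1 array, Sprr1b and Sprr2d being the exceptions. All 4 probe sets past 2-fold named a Sprr2a gene or Sprr2b, and their log2 ratios ran from 2.02 to 3.54. The 4 others ran from -0.63 to 0.93, with a median of -0.34.

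**Figure D2:**
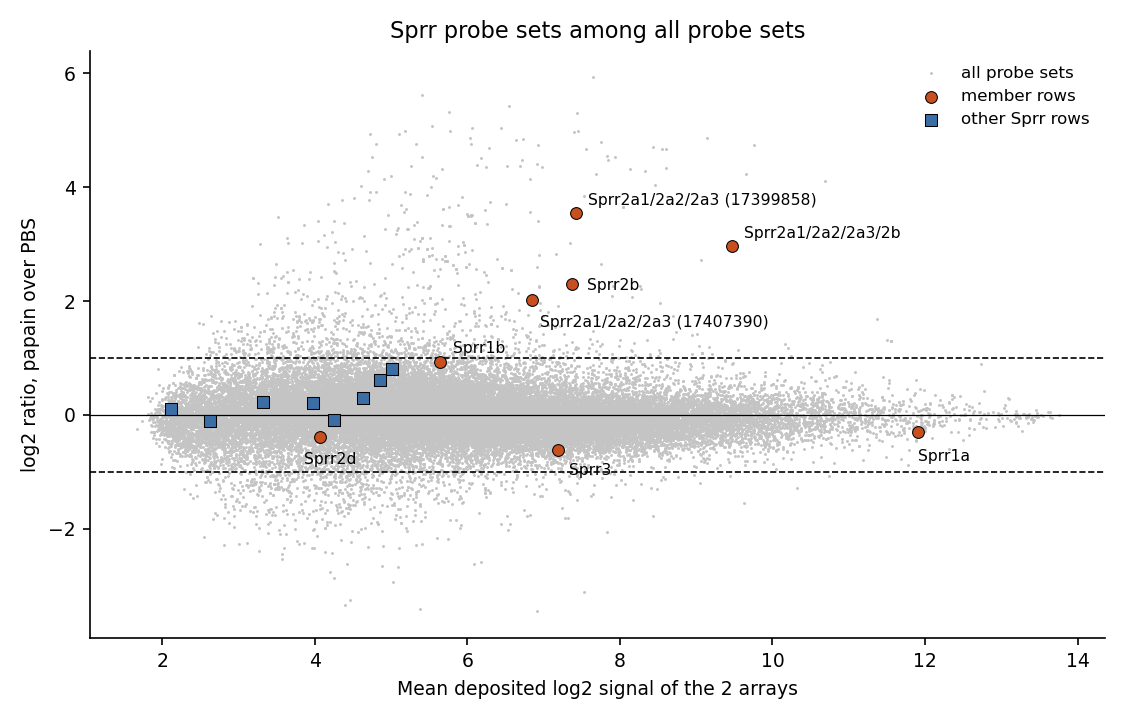
The log2 ratio of papain over PBS (vertical axis) against the mean log2 signal of the 2 arrays (horizontal axis) for all 41345 probe sets in grey, with member rows as circles and other Sprr rows as squares. Dashed lines mark 2-fold. The Sprr2a and Sprr2b rows lie at log2 ratios of 2.02 to 3.54, and Sprr1a and Sprr3 lie below 0.

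The rest of the family was dim. The 8 other probe sets named Sprr2e, Sprr2f, Sprr2g, Sprr2h, Sprr2i, Sprr2j-ps, Sprr2k and Sprr4, none reached the floor in either array, and 6 were under background level in both. Sprr4, at the far end of the cluster, read 5.41 after papain and 4.61 after PBS, a log2 ratio of 0.80. Sprr2e read 5.16 after papain and 4.55 after PBS, a log2 ratio of 0.61. The PBS signals of both were under background level. The 8 ratios ran from -0.10 for Sprr2g to 0.80 for Sprr4, with a median of 0.21 and none past 2-fold.

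In RefSeq order along chromosome 3 the cluster runs Sprr2a1, Sprr2a2, Sprr2a3, Sprr2b, Sprr2d, then the other Sprr2 genes, Sprr1b, Sprr3, Sprr1a and Sprr4. The genes named by the probe sets past 2-fold were thus the first 4 of the cluster and adjacent to each other. Of these only Sprr2b had a probe set of its own, so the values do not show that each of the 4 was higher. The next gene, Sprr2d, was under background level in both arrays, so an end of the higher signal at Sprr2b was not measured. Lelp1, the neighbour outside that end, read 4.61 after papain and 3.71 after PBS, under background level in both. Ivl, which encodes involucrin and lies beyond Sprr4, read 6.74 after papain and 6.64 after PBS. Of the 10 annotated genes on each side, 18 had a probe set of their own. None of these 18 was past 2-fold, and their ratios ran from -0.65 for Lor, the loricrin gene, to 0.90 for Lelp1, with a median of 0.07. Over all 22180 named genes without a floor, 1.83% were higher by 2-fold or more and 0.73% lower, with a median of -0.03.

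**Figure D3:**
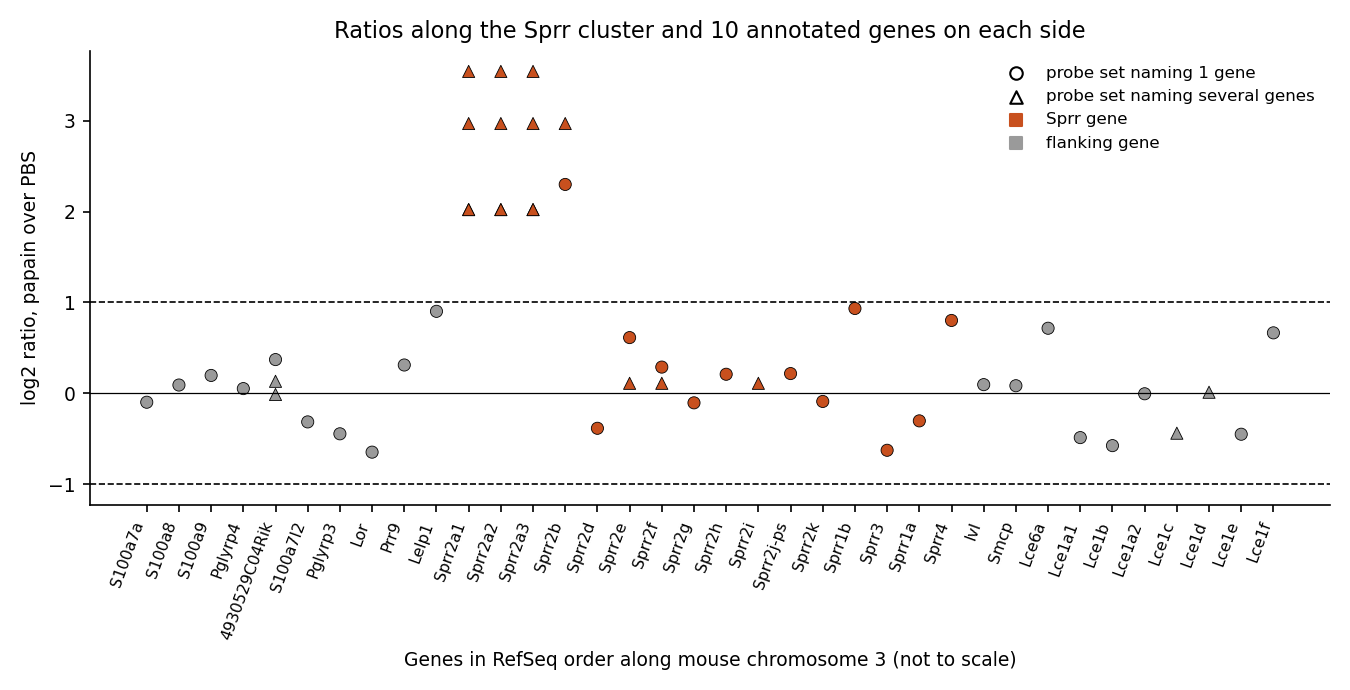
The log2 ratio of papain over PBS (vertical axis) for genes in RefSeq order along mouse chromosome 3 (horizontal axis, order only), Sprr genes in orange and the 10 annotated genes on each side in grey, with triangles for probe sets that name several genes and dashed lines at 2-fold. A shared probe set is drawn at each gene it names. Values past 2-fold lie at the 4 adjacent genes from Sprr2a1 to Sprr2b.

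Other proteins of the cornified envelope that were listed and measured lay within 2-fold, apart from 1 Lce gene. In the list of envelope proteins and late squamous differentiation 0 of 22 measured genes were past 2-fold in either direction, a count near the background of 1.83% higher and 0.73% lower. Their median log2 ratio was -0.30, with 17 below 0. The median of all named genes above the floor, which 16 of the 22 reached, was -0.10. Lor, the main envelope protein of epidermis, read 6.88 after papain and 7.52 after PBS, a log2 ratio of -0.65. Ivl, an early envelope protein, had 0.10. Cdsn, which encodes corneodesmosin, had -0.72, Asprv1, a protease that processes filaggrin, -0.56 and Krtdap, a keratinocyte differentiation protein, -0.51. The 18 late cornified envelope (Lce) genes with a probe set of their own had a median of -0.42 with 0 at least 2-fold higher and 1, Lce1h at -1.01, at least 2-fold lower. The 15 S100a genes with a probe set of their own had a median of -0.16 with 0 higher and 1 lower, S100a5 at -1.07, which is also an olfactory neuron marker.

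Genes of the enzymes that build the envelope also lay within 2-fold. Of 16 measured genes for cross-linking, lipid assembly and proteolysis, 0 were past 2-fold, a count near the background of 1.83% higher and 0.73% lower, and the median was -0.09, with 6 above 0 and 10 below. Tgm1, the transglutaminase that fixes the envelope to the membrane, read 6.18 after papain and 6.46 after PBS, a log2 ratio of -0.27. The lipoxygenase genes of the epidermal lipid barrier, Aloxe3 and Alox12b, had -0.79 and -0.75, the lipid transporter gene Abca12 -0.67 and the membrane protease gene Prss8 -0.55.

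Keratins and desmosomes of stratified epithelium were measured in the same arrays. Of 13 measured keratins and 11 desmosome genes 0 were past 2-fold, counts near the background of 1.83% higher and 0.73% lower. The keratins had a median of -0.24, and Krt17, a keratin of activated keratinocytes, had -0.94, the epidermal keratin Krt1 -0.61, its partner Krt10 -0.44 and the oral keratin Krt76 -0.42. The desmosome genes had a median of -0.19. The median of all named genes above the floor, which 11 of the keratins and 8 of the desmosome genes reached, was -0.10. The plaque gene Jup had -0.44, and the cadherin genes Dsc3, Dsg1a and Dsg1b had -0.38, -0.33 and -0.29, the last under background level in both arrays.

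The listed markers of squamous epithelium itself gave signal. All 10 that were measured, of 11 listed, reached the floor. Whether their signal came from squamous lining or from other epithelium of the specimens was not tested. None of the 10 was past 2-fold, a count near the background of 1.83% higher and 0.73% lower. Of them, 8 were below 0, and the median was -0.15, beside -0.10 for all named genes above the floor. Their summed linear signal was 3625 after papain and 4043 after PBS.

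**Figure D4:**
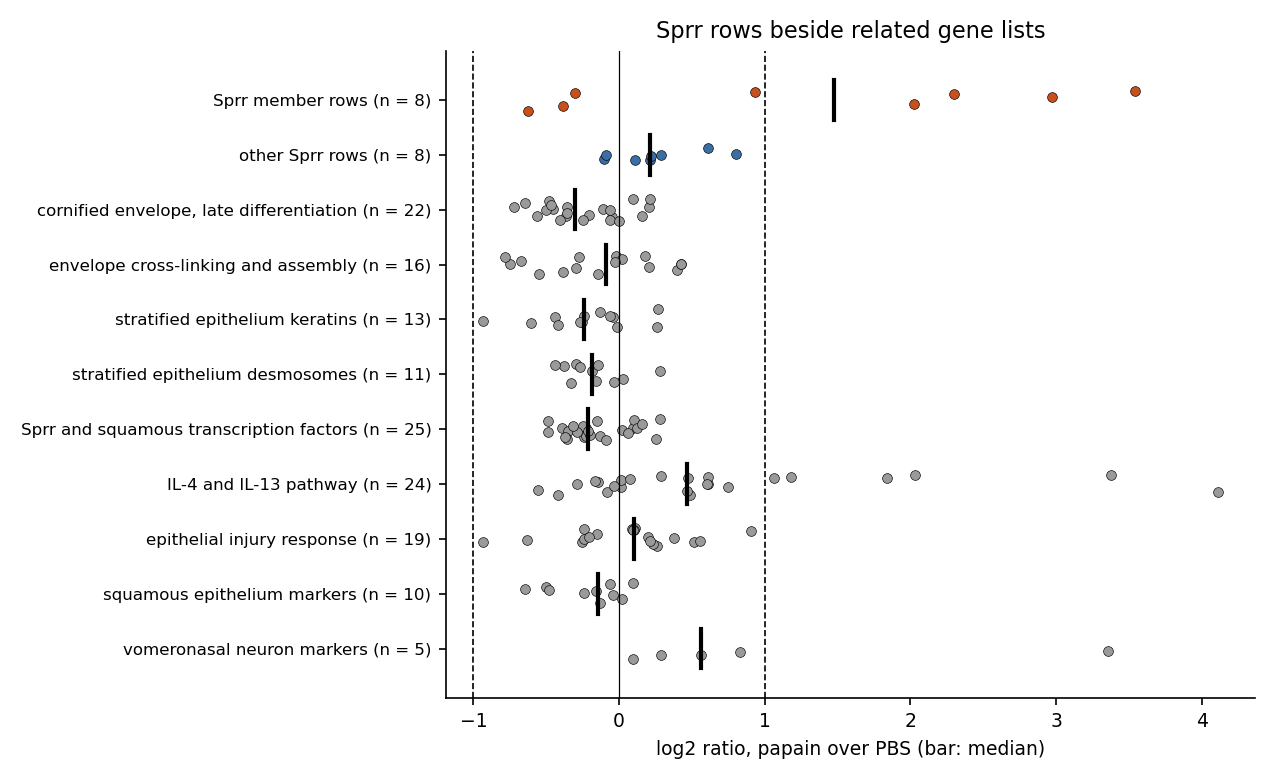
The log2 ratio of papain over PBS (horizontal axis) for each Sprr probe set and each measured gene of the 7 pathway lists, the squamous markers and the vomeronasal markers (rows), with the median as a black bar and 2-fold as dashed lines. Vertical scatter within a row is for legibility. Among the rows drawn, values past 2-fold lie in the Sprr member rows, the IL-4 and IL-13 list and, for 1 gene, the vomeronasal markers.

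Transcription factors that are linked to Sprr promoters or to squamous differentiation lay within 2-fold. Of 25 measured, 0 were past 2-fold, a count near the background of 1.83% higher and 0.73% lower. The median was -0.21, with 17 below 0. The median of all named genes above the floor, which 22 of the 25 reached, was -0.10. Klf4, a zinc finger factor of terminal differentiation, read 8.04 after papain and 7.95 after PBS. Elf3, an epithelial ETS factor, had a log2 ratio of -0.13 and Trp63, the factor of stratified epithelium, 0.02. The AP-1 subunit genes Jund, Fosl2 and Junb had -0.49, -0.49 and -0.39, and Maf, a related leucine zipper factor, -0.37. Transcript level says nothing of the activity of such factors.

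The list of the IL-4 and IL-13 pathway and the genes it induces had members past 2-fold, as Sprr2a and Sprr2b did. Of 24 measured genes 6 were at least 2-fold higher and 0 lower, beside 1.83% and 0.73% of all named genes, with a median of 0.47. Of the 24, 17 were above 0 and 7 below, the latter down to -0.55. The list was chosen with earlier results of these data known, so the count is a description and the shares show nothing further. The genes past 2-fold were all higher. They are Chil4, Retnla, Chil3, Clca1, Itln1 and Fcgbp, induced genes rather than parts of the signalling chain, Itln1 and Fcgbp being named after their values were seen. Chil4, a chitinase-like protein, read 12.74 after papain and 8.63 after PBS. Clca1, a goblet cell protein, read 7.87 after papain and 6.03 after PBS. Chil3 read 6.68 in the papain array and Retnla 6.07, against PBS signals of 4.65 and 2.70 that were under background level. Of the chain itself, Il13 had a log2 ratio of 0.29, with 5.81 after papain and 5.52 after PBS, and Stat6 had -0.29. Jak1, a kinase of the receptors that was named after its value was seen, had 0.75, with 10.28 after papain and 9.53 after PBS. Whether these genes and the Sprr2 genes share a cause was not tested.

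The list of epithelial injury response genes, which holds 3 keratins of activated keratinocytes, had a median of 0.10. None of 19 measured genes was past 2-fold, a count near the background of 1.83% higher and 0.73% lower. Lcn2, an iron-withholding protein, had 0.90 and Slpi, a protease inhibitor, 0.55, while Krt17 had -0.94 and Ereg, a growth factor of the epidermal growth factor family, -0.63.

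Markers of other cell types differed between the same 2 arrays. All 5 vomeronasal neuron markers were above 0, with a median of 0.56 and 1 past 2-fold, Calr4 at 3.35 from a PBS signal under background level. Their summed linear signal was 3148 after papain and 2404 after PBS. Of 176 family 1 vomeronasal receptors 113 were at least 2-fold higher and 0 lower, and of 109 family 2 receptors 86 were higher and 1 lower, beside 1.83% and 0.73% of all named genes. In both arrays 92 of the 176 and 37 of the 109 were under background level, where a ratio gives no fold in transcript, and 44 and 50 reached the floor. The summed linear signal of family 1 was 19582 after papain and 6966 after PBS, and that of family 2 was 19827 after papain and 1669 after PBS. Most of the family 1 sum after PBS came from 1 gene within 2-fold, Vmn1r233, which read 12.31 after papain and 12.13 after PBS. The counts of receptors show that the specimens differed in vomeronasal signal, and the part of this in the Sprr2 ratios was not tested.

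Ciliated cell markers had a median of -0.45 with all 7 below 0 and olfactory neuron markers -0.28 with 6 of 7 below 0. The median of all named genes above the floor, which all of these markers reached, was -0.10. Of the olfactory neuron markers 1, S100a5, was at least 2-fold lower, beside 0.73% of all named genes. Of 8 goblet and mucous cell markers 6 were above 0, with a median of 0.28, Muc5ac at 0.61 and Tff1 at 0.49. Sustentacular cell markers, of the supporting cells of olfactory epithelium, had -0.07. Neutrophil markers had 0.20, with 7 of 9 above 0. Of them 1, Cxcr2 at 1.26, was at least 2-fold higher, beside 1.83% of all named genes.

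Hair follicle and enamel organ hold other keratinizing or mineralizing epithelia of the snout. Of 10 hair follicle markers 0 were past 2-fold, a count near the background of 1.83% higher and 0.73% lower. Of them, 1 reached the floor, and the median was 0.22. Their summed linear signal was 408 after papain and 331 after PBS. Of 6 enamel organ markers 1 was at least 2-fold higher and 2 lower, beside 1.83% and 0.73% of all named genes, with a median of -0.50. They ran from Ambn at -1.70, its papain signal under background level, to Odam at 1.49, its PBS signal under background level. Genes of other tissues, which set background level, had a median of 0.12 with 0 of 35 past 2-fold.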

How the data were processed

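The members, lists and rules were chosen with earlier results of these data known. The authors deposited 1 log2 signal per probe set and array, a scale read from the values. The submitters' processing notes name Transcriptome Analysis Console 4.0. How background was corrected and how arrays were summarised and normalized is not given in the sources used here. Ratios may thus be relative to most other probe sets. Of 41345 probe sets, 23521 carried 1 gene symbol, 1814 several and 16010 none. A gene with several probe sets was taken at the one with the highest mean signal, which gave 22180 genes.

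The log2 ratio was papain minus PBS, and a difference was counted at 2-fold. The floor was the median signal of all named genes, 6.29, which 11691 genes reached in at least 1 array. Background level was the median of 35 measured genes of other tissues. With 1 array per group there was no SD, test or p-value, so precision is limited by the number of arrays. The pooled SD of ratios between probe sets of 1 gene, over 1082 genes, was 0.32, which measures probe sets and not animals. List genes were named by the size of their ratio, up to 4 per pathway list and 2 per marker list, beside 8 genes chosen whatever their values and the 3 ranked on either side of Sprr2b. The counting steps were tested on simulated data. Start windows of 32851 RefSeq entries (GRCm38.p6) held 250 bases before the start and 50 after it. Alternatives were quantile normalization, a median ratio of 0, loess with a span of 0.3, other thresholds and floors, averaged probe sets and other ways of counting rows. Python 3.11.15, numpy 2.4.6, pandas 2.3.3, statsmodels 0.14.6, Biopython 1.88 and matplotlib 3.10.9 were used.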

Additional observations from a re-analysis of the deposited data

How the results depend on the processing

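With 1 array per group, no array could be left out. No paired analysis was possible because each group has 1 array. Under quantile normalization, a median ratio of 0 and loess, each of the 8 distinct Sprr probe sets stayed on its side of 2-fold and moved by less than 0.32, the SD between probe sets of 1 gene. The probe sets of Sprr2a and Sprr2b had lowest log2 ratios of 2.97, 3.53, 2.30 and 2.02 over these settings. Sprr1b ran from 0.87 to 0.95, Sprr1a from -0.30 to -0.29 and Sprr3 from -0.63 to -0.53. Over probe sets that name 1 gene only, 1 member was at least 2-fold higher, Sprr2b. At 1.5-fold, 1 was lower, Sprr3. Among named genes, 405 were higher and 162 lower with no floor, 93 and 18 with a floor at the 75 percentile, and 397 and 507 at 1.5-fold. At 3-fold, 6 were lower. The median of the epithelial injury list turned to -0.030 among members above the floor, and that of the enamel organ markers was -1.70, from the 1 gene left. The cause was not tested. Background in the signal, which is high beside the PBS values of Sprr2a, limits the size of those folds.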
